A study of Drosophila melanogaster with 4 samples.

Results

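Cytoplasmic ribosomal protein genes were followed in sorted embryonic gonads of Drosophila melanogaster. Members were all genes of the deposited table whose symbol begins with RpL or RpS, plus sta, which encodes the small-subunit protein of the SA family. Left out by name were RpL22, RpL22-like, RpS19a, RpS19b, RpS5a, RpS5b, RpS10a, RpS10b, RpL10Aa and RpL10Ab. The rule took 83 of 17103 genes, 50 of the large and 33 of the small subunit. The gonads came from Phf7 mutant embryos that carried the Phf7[DN18] allele and vasGFP (2 libraries) and from control embryos that carried vas-GFP without the mutation (2 libraries). Phf7 encodes a PHD-finger protein that acts in the male germline, and vas-GFP marks the germ cells, by which gonads were sorted. Embryos of both groups were of stage 17, aged 18 to 22 h at 25°C and of mixed sex, and the sorted gonads held germ cells together with somatic gonad cells.

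Each ribosome is built from a small subunit, which reads the mRNA, and a large subunit, which joins the amino acids, and most ribosomal proteins are present in a single copy per subunit. The exception is the stalk of the large subunit, where RpLP0 anchors several copies of the acidic proteins RpLP1 and RpLP2 that recruit the translation factors. In Drosophila, loss of a single gene copy of many ribosomal proteins gives the Minute phenotype of slow development and thin bristles.

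Sequencing read the 3′ ends of polyadenylated transcripts, so a read stands for about 1 transcript and the length of the transcript weighs little. The libraries held between 8668302 and 12659661 reads over all genes and between 10854 and 11422 genes with a read. The letters a and b only name the libraries of a genotype and tie no mutant library to a control library. Phf7 itself had 9 and 44 reads in the mutant libraries, against 749 and 495 reads in the control libraries, and whether the counted 3′ end lies within the deleted part is not given in the sources used here. All 8 germ cell markers examined, among them vas and nos, and all 6 somatic gonad markers, among them tj, were read in these libraries. The 2 libraries of a genotype are biological replicates, and p-values measure the spread between these samples only. In bulk samples, fewer cells of a type and less RNA per cell cannot be told apart.

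Ribosomal protein genes were among the most abundant genes of the gonad. Of the 83 members, 82 had at least 1 read and 80 had a mean normalized count of at least 10, the minimum for testing. Normalized counts are reads divided by the size factor of the library. Of the 100 most abundant genes, 72 were members, as were 8 of the 10 most abundant. The quartiles of the mean normalized count over the 80 genes were 32100 and 58840, with a median of 40350, so most members lay within a narrow band. Only 5 tested members had a mean under 10000, namely RpL34a, RpLP0-like, RpL37b, RpS14b and RpS15Ab, and each of these is a copy or relative of another ribosomal protein gene. The means of the 80 genes spanned 263-fold.

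**Figure D1:**
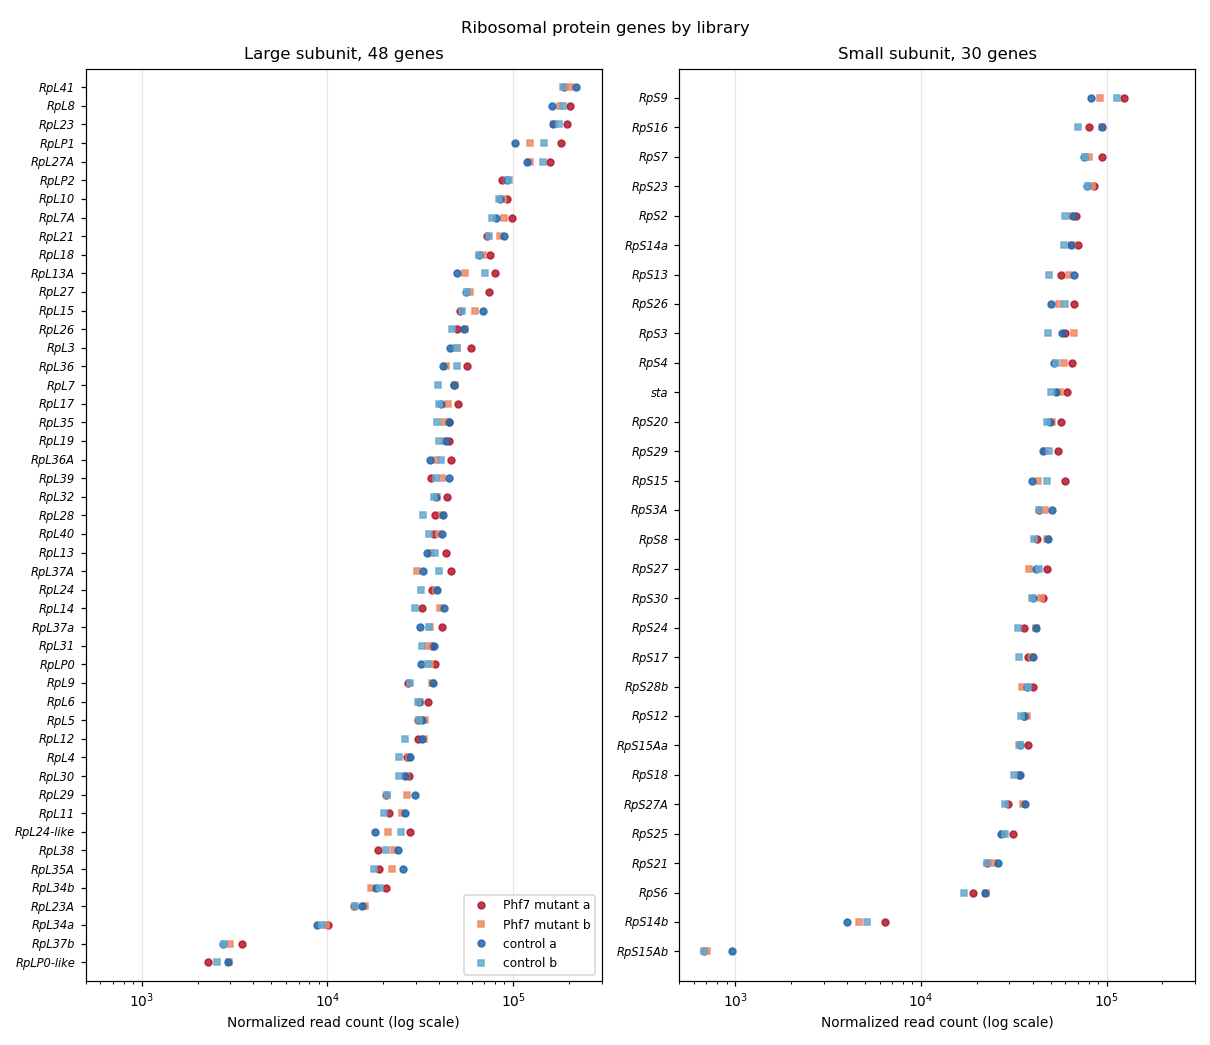
Normalized read count (horizontal axis, log scale) of 78 of the 80 tested ribosomal protein genes in each of the 4 libraries, with 48 genes of the large subunit on the left and 30 of the small subunit on the right, sorted by mean. Most genes lie close to the median of 40350, a few genes from RpL41 downward lie far above it, and RpS15Ab lies lowest at a mean of 755.

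In the large subunit the most abundant genes were RpL41, RpL8 and RpL23. RpL41 encodes a very short basic peptide of the ribosome. It had 187351 and 201945 normalized counts in the mutant libraries, against 218254 and 186451 in the control libraries. The control values enclosed the mutant values. RpL8 encodes the protein uL2, which lies close to the peptidyl transferase centre. It had 203311 and 178888 normalized counts in mutants, against 162511 and 185009 in controls, and the groups overlapped. RpL23, which encodes uL14 at the interface of the subunits, had 194710 and 166055 normalized counts in mutants, against 163913 and 177443 in controls. Divided by the kilobases of the longest annotated transcript, a scale on which 3′ reads favour short transcripts such as RpL41 (320 nt), the means were 620313 for RpL41, 323857 for RpL23 and 215468 for RpL27A.

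The least abundant tested genes of the large subunit were RpLP0-like, RpL37b and RpL34a. RpLP0-like is related to the stalk protein RpLP0 and to the ribosome assembly factor Mrt4 of yeast. It had 2284 and 2967 normalized counts in mutants, against 2928 and 2539 in controls. RpL37b had 3462 and 3005 normalized counts in mutants, against 2743 and 2781 in controls. RpL34a had 10106 and 9869 normalized counts in mutants, against 8779 and 9415 in controls. In both RpL37b and RpL34a the mutant libraries lay above the control libraries, by a log2 fold change of 0.22 ± 0.16 and 0.14 ± 0.14 (SE, n = 2 per genotype).

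RpL3 encodes uL3, which reaches towards the peptidyl transferase centre. It had 59307 and 50057 normalized counts in mutants, against 45868 and 49834 in controls. RpL11 is known in mammals for binding MDM2 when ribosome assembly is disturbed. It had 21379 and 25275 normalized counts in mutants, against 26223 and 20307 in controls. The groups of RpL11 overlapped, and those of RpL3 were close to touching.

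In the small subunit RpS9 and RpS16 were among the genes with the highest means. RpS9 (uS4), a protein bound early during assembly, had 124067 and 92503 normalized counts in mutants, against 82939 and 114077 in controls. RpS16 (uS9) had 80054 and 94534 normalized counts in mutants, against 94628 and 70184 in controls. Both genes overlapped between genotypes, and in both the libraries of 1 genotype differed by more than the genotype means. After the copies RpS15Ab and RpS14b, the lowest was RpS6, the ribosomal substrate of S6 kinase, with 19022 and 22487 normalized counts in mutants, against 22058 and 17147 in controls.

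RpS3 lines the entry of the mRNA channel. It had 59563 and 66523 normalized counts in mutants, against 57402 and 48112 in controls. The gene sta had 61360 and 56195 normalized counts in mutants, against 53103 and 50230 in controls. Both mutant libraries lay above both control libraries for each of these genes, with log2 fold changes of 0.26 ± 0.18 for RpS3 and 0.19 ± 0.16 for sta (SE, n = 2 per genotype). Scaled by total reads, the groups of RpS3 overlapped and those of sta did not.

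The stalk genes did not follow each other. RpLP1 had 182000 and 123650 normalized counts in mutants, against 102431 and 146439 in controls. RpLP2 had 87499 and 92428 normalized counts in mutants, against 92599 and 95496 in controls. RpLP0 had 38222 and 35695 normalized counts in mutants, against 31865 and 35010 in controls. RpLP2 was the only tested member with both mutant libraries below both control libraries, which did not hold when libraries were scaled by total reads, RpLP0 had both above, and RpLP1 overlapped. Counts of RpLP1 were 4.76 and 3.46 times those of RpLP0 in mutants, against 3.21 and 4.18 times in controls. For RpLP2 the ratios to RpLP0 were 2.29 and 2.59 in mutants, against 2.91 and 2.73 in controls. The ratio of RpLP1 to RpLP2 was 2.08 and 1.34 in mutants, against 1.11 and 1.53 in controls. Over the 4 libraries, RpLP1 was thus read 3.21 to 4.76 times and RpLP2 2.29 to 2.91 times as often as their anchor. The ratio of RpLP1 to RpLP2 overlapped between the genotypes.

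Several proteins are encoded by more than 1 gene, and in each such pair 1 copy gave most of the reads. Reads of near-identical copies are uncertain, because the treatment of reads that fit both copies is not given in the sources used here. RpS14a and RpS14b stand in tandem on the X chromosome, at chrX:7933742-7934677 and chrX:7934898-7935792, 220 nt apart. RpS14a had 69931 and 65400 normalized counts in mutants, against 64567 and 58676 in controls. RpS14b had 6368 and 4638 normalized counts in mutants, against 3992 and 5110 in controls. Of the reads of this pair, RpS14b took 8.35% (95% Wilson interval 8.16 to 8.53) and 6.62% (6.45 to 6.80) in mutants, against 5.82% (5.65 to 6.0) and 8.01% (7.78 to 8.25) in controls. The share differed between libraries of 1 genotype by more than these intervals, which cover counting error only, and the genotypes overlapped.

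RpL37a and RpL37b are the genes that the annotation names RpL37-1 and RpL37-2, on X and 2R, and RpL37b took 7.68% and 7.79% of the reads of the pair in mutants, against 7.97% and 7.34% in controls. RpL37a had 41632 and 35580 normalized counts in mutants, against 31683 and 35095 in controls. The similarly named RpL37A, which encodes the different protein eL43, had 46282 and 30436 normalized counts in mutants, against 32778 and 39765 in controls. In the pair on 3R, RpL34a took 32.9% and 36.3% of the reads in mutants, against 32.5% and 33.0% in controls, the most even division of the copy pairs. RpL34b had 20591 and 17281 normalized counts in mutants, against 18206 and 19141 in controls.

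RpS15Ab on 2R was the least abundant tested member, with 682 and 707 normalized counts in mutants, against 955 and 675 in controls. Its counterpart RpS15Aa on X had 37781 and 33932 normalized counts in mutants, against 33999 and 34089 in controls. RpS15Ab took 1.77% and 2.04% of the reads of this pair in mutants, against 2.73% and 1.94% in controls. The most uneven pair was that of RpS28. RpS28b had 39941 and 35050 normalized counts in mutants, against 37112 and 37527 in controls. RpS28a had 9 and 7 reads in mutants and 0 reads in both controls. With the control group set to a floor of 3 reads, the mutant level was 4.28 times that floor. The counting error of the mutant reads is not in this ratio, so it is no lower bound, and RpS28a was below the minimum for testing. RpS28-like had 0 reads in both mutants, against 0 and 3 in controls, and RpL7-like had 0 reads in all 4 libraries. RpL24-like encodes a relative of RpL24 that acts in assembly of the large subunit in yeast. It had 27935 and 21260 normalized counts in mutants, against 18057 and 24890 in controls.

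RpL40 and RpS27A are made as fusions to ubiquitin, from which they are cleaved. RpL40 had 37463 and 39988 normalized counts in mutants, against 41319 and 35182 in controls. RpS27A had 29395 and 35273 normalized counts in mutants, against 36291 and 28260 in controls. Both overlapped between genotypes, and in both the higher library was mutant b within the mutants and control a within the controls.

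The members together took a slightly larger share of the reads in mutants. They held 39.07% (95% Wilson interval 39.04 to 39.09) and 39.11% (39.08 to 39.14) of all reads in the mutant libraries, against 37.71% (37.68 to 37.74) and 37.34% (37.31 to 37.38) in the control libraries. The means were 39.09% ± 0.03 in mutants and 37.53% ± 0.26 in controls (SD, n = 2 each), a difference of 1.56 percentage points with no overlap. Both subunits had this direction, with 24.68% and 24.66% for the large subunit in mutants, against 23.88% and 23.76% in controls, and 14.39% and 14.45% for the small subunit in mutants, against 13.83% and 13.58% in controls. The ratio of large- to small-subunit reads was 1.72 and 1.71 in mutants, against 1.73 and 1.75 in controls. No test was made of this share, whose members were chosen with results of these data known, and an exact two-sided permutation test of 2 libraries against 2 cannot go below p = 0.333. With the 10 most abundant other genes taken out of the total, the shares were 40.85% and 41.29% in mutants, against 40.74% and 39.64% in controls. The difference of the means fell from 1.56 to 0.88 percentage points, so its size depended on these few other genes. The genotypes then still did not overlap, but mutant a exceeded control a by less than the controls differed from each other.

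**Figure D2:**
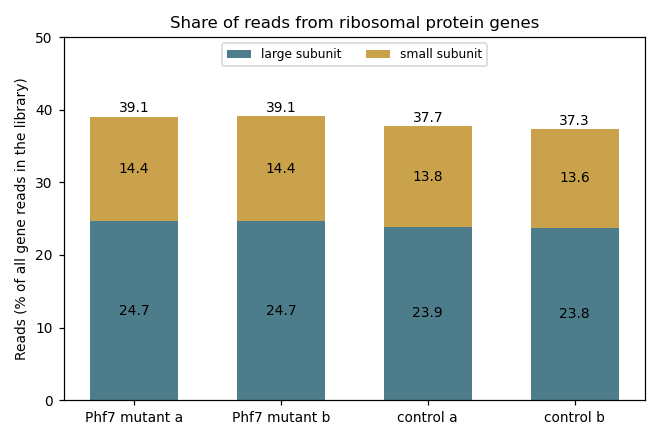
Share of all gene reads (vertical axis, percent) that came from ribosomal protein genes in each library, with the large subunit below and the small subunit above. Totals are 39.1% in both mutant libraries and 37.7% and 37.3% in the control libraries.

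Gene by gene, no member passed the test of mutant against control. limma on log2(normalized count + 1) called 0 of the 80 members at an adjusted p under 0.05, where 0.0% of all 9124 genes tested were called. The members' adjusted p values lay between 0.979 and 0.996. At an unadjusted p under 0.05 there were 0 members and 516 genes in all, and limma-voom on the reads gave 0 calls, 0 members and 467 genes. The smallest unadjusted p of a member was 0.185, for RpL7A. Of the 80 log2 fold changes 67 were above 0 and 13 below, with a median of 0.09. Over all genes tested 4842 were above 0 and 4282 below, with a median of 0.03. The 1392 other genes with a mean of at least 1000 had 860 above 0 and 532 below, with a median of 0.07. For the 68 other genes with a mean of at least 10000 these were 39 and 29, with a median of 0.03. When libraries were scaled by their total reads instead, 55 members were above 0 and 25 below, with a median of 0.05 beside -0.01 over all genes. Without control b the split was 47 to 33 and the median 0.05. The large subunit had 39 of 49 above 0 and a median of 0.08, and the small subunit 28 of 31 and a median of 0.09.

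The fold changes were small for every tested member. The largest were 0.29 ± 0.29 for RpLP1, 0.27 ± 0.23 for RpS14b and 0.26 ± 0.18 for RpS3, and the lowest were -0.21 ± 0.24 for RpS15Ab, -0.10 ± 0.18 for RpL38 and -0.10 ± 0.17 for RpL39 (log2, SE, n = 2 per genotype). With each library left out in turn, the value ranged from 0.01 to 0.57 for RpLP1, from 0.04 to 0.50 for RpS14b and from 0.13 to 0.39 for RpS3, and those of RpS15Ab, RpL38 and RpL39 changed sign. RpL38 had 18798 and 22866 normalized counts in mutants, against 24112 and 20589 in controls. RpL39 had 36394 and 41387 normalized counts in mutants, against 45266 and 38266 in controls. Both overlapped between the genotypes. The fold change was larger than its own SE in 13 of 80 members. The standard deviation of the fold changes was 0.10 over the 80 members, beside 0.66 over the 68 other genes with a mean of at least 10000 and 0.82 over all genes tested. The largest value among the 68 genes was 4.93, which weighs on their standard deviation. Their quartiles were -0.08 and 0.19, beside 0.02 and 0.14 over the members. A log2 fold change beyond 0.25 in either direction was found in 3 members (3.75%), beside 18 of the 68 other abundant genes (26.5%) and 51.7% of all genes tested.

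**Figure D3:**
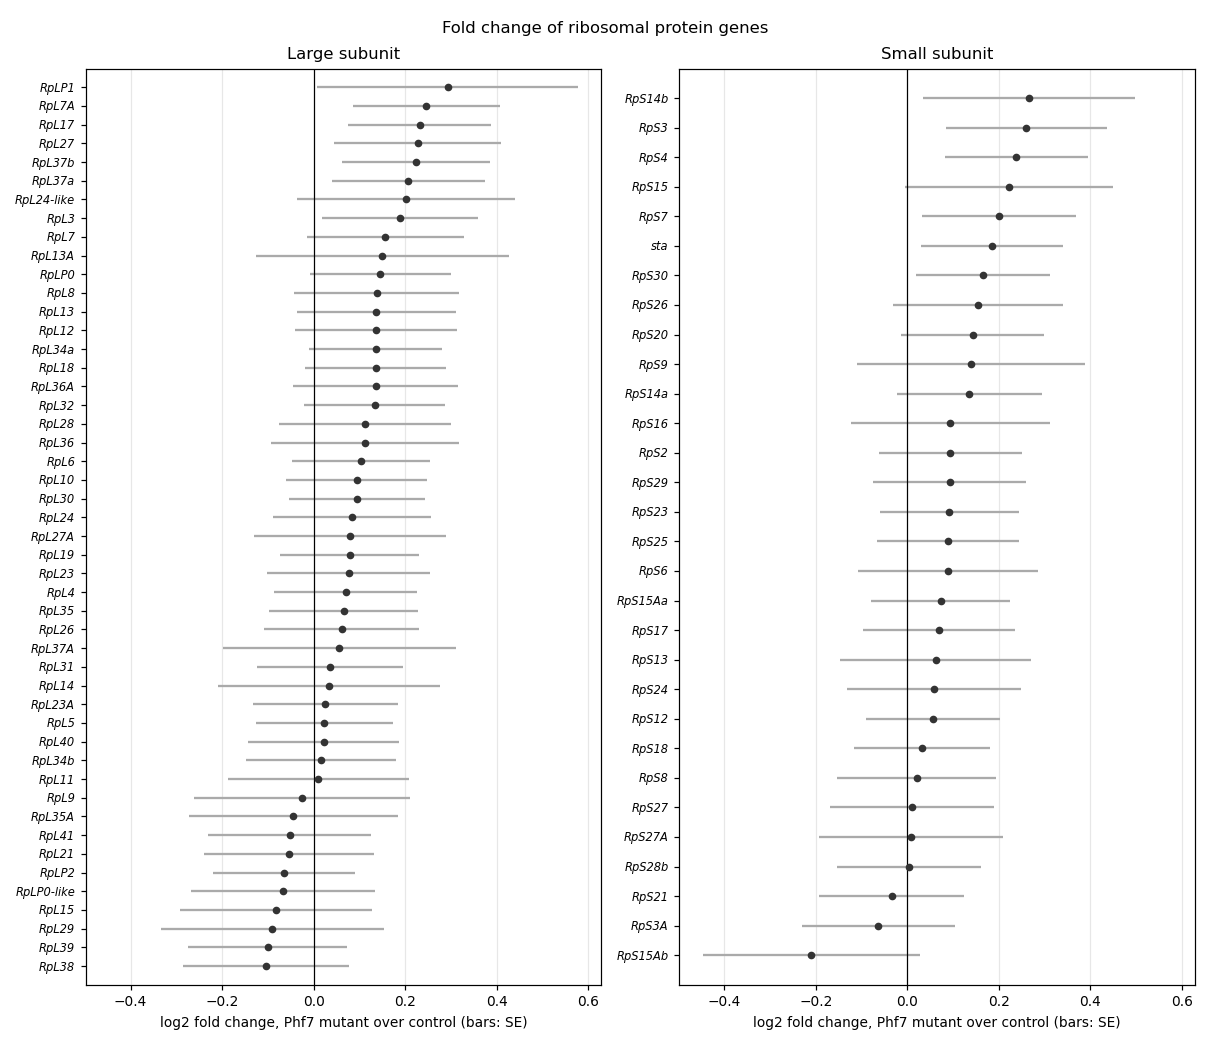
Log2 fold change of mutant over control (horizontal axis) for 78 of the 80 tested ribosomal protein genes, with bars of 1 SE from limma and 2 libraries per genotype, large subunit left and small subunit right. Of the 78 points 65 lie above 0 and 13 below, all between -0.21 and 0.29.

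In 24 of the 80 members (30.0%) both mutant libraries lay above both control libraries, beside 16.3% of all genes tested and 20.6% of the 68 other genes with a mean of at least 10000. Among them were RpL3, RpL7, RpL7A, RpL10, RpL17, RpL27, RpL34a, RpL37a, RpL37b and RpLP0 of the large subunit and RpS3, RpS4, RpS7, RpS14a, RpS20, RpS30 and sta of the small subunit. In 1 member (1.25%), RpLP2, both lay below, beside 16.6% of all genes tested and 8.82% of those 68 other genes. Scaled by total reads, an alternative chosen after seeing the data, 20 members lay above (all genes tested, 14.1%) and 0 below (all genes tested, 17.8%). RpL7 and RpS3 were among the genes that then overlapped, and every other member named here with both mutant libraries above stayed apart. RpL7A had 98989 and 89149 normalized counts in mutants, against 81372 and 77089 in controls. RpS4 had 65396 and 58788 normalized counts in mutants, against 51961 and 53183 in controls. RpL17 had 50267 and 44658 normalized counts in mutants, against 40886 and 39821 in controls. In these 3 genes, picked after their values were seen, the genotypes differed by more than the libraries of either genotype did. The same held for other members, among them sta, RpS30, RpL34a and RpL37b. Control b was the lowest library for 39 members and the highest for 1, and mutant a was the highest for 44 and the lowest for 11.

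Differences between libraries of the same genotype, averaged over both genotypes, were larger than the difference between genotypes for 55 of the 80 members. Taken as mutant a over mutant b and control b over control a, they ran in parallel. The median absolute log2 ratio was 0.17 between mutant a and mutant b and 0.20 between control b and control a, against a median absolute log2 fold change of 0.09 between genotypes. In 30 members mutant a lay above mutant b and control b above control a, in 34 members both comparisons went the other way, in 15 mutant a and control a were the higher libraries, and RpLP2 alone had mutant b and control b higher. Across the 80 members the log2 ratio of mutant a over mutant b and that of control b over control a had a Pearson r of 0.90 and a Spearman rho of 0.90. Because the letters only name libraries, the order within a pair is free, and control a over control b would reverse the sign. The correlation is a description across genes that share the same 4 libraries, with no test. The same correlation was 0.63 over all genes tested and 0.91 over the 68 other genes with a mean of at least 10000.

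Among the leading genes of the first set were RpLP1, RpL13A, RpS9, RpL37A, RpL24-like, RpS14b and RpS15, and the opposite set was led by RpL29, RpL14, RpL9, RpL35A, RpS16, RpL15, RpS27A and RpL11. RpL13A had 79999 and 54829 normalized counts in mutants, against 50166 and 71000 in controls. RpL14 had 32527 and 40653 normalized counts in mutants, against 42650 and 29571 in controls. RpL29 had 20602 and 26795 normalized counts in mutants, against 29792 and 21009 in controls. In RpL13A mutant a and control b were the high libraries, and in RpL14 and RpL29 they were the low ones. Members of both subunits were found in both sets, with 17 and 21 genes of the large subunit and 13 and 13 of the small subunit. Across the members, the mean of both log2 ratios had a Spearman rho of 0.29 with the mean count, 0.04 with the length of the longest transcript, -0.19 with the coding length and 0.14 with the length of the 3′ untranslated region.

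**Figure D4:**
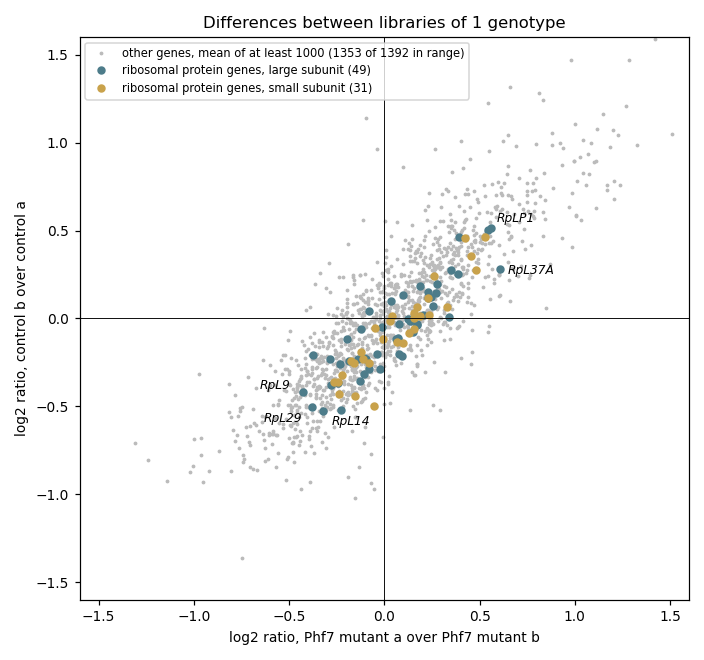
Log2 ratio of mutant a over mutant b (horizontal axis) against log2 ratio of control b over control a (vertical axis), for the 80 tested ribosomal protein genes coloured by subunit and for other genes with a mean of at least 1000 in grey (1353 of 1392 fall in the range drawn). Ribosomal protein genes run along the rising diagonal, with RpLP1 and RpL37A at the upper right and RpL29, RpL14 and RpL9 at the lower left.

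Markers of other tissues moved in the same library pairs. Summed over 8 muscle genes, normalized counts were 3840 and 947.9 in mutants, against 815.0 and 2821 in controls. Summed over 8 neuron genes they were 3586 and 1103 in mutants, against 840.4 and 1966 in controls, and over 6 midgut genes 3747 and 509.6 in mutants, against 319.1 and 4666 in controls. All 8 muscle, all 8 neuron and all 6 midgut markers were higher in mutant a than in mutant b and higher in control b than in control a. Of 4 hemocyte markers He had 0 reads in 3 libraries and 1 in control b, NimC1 had 0 to 3 reads per library, and Hml and Sr-CI were higher in mutant a and control b. The sum of the hemocyte list was 250.7 and 73.95 in mutants, against 109.7 and 356.0 in controls. The 3 fat body markers were at or near 0, with Fbp1 at 0 in all libraries. Of the 4 cuticle markers, Lcp3 and Cpr47Eg had under 20 reads in each library, and the list summed to 62.00 and 43.65 in mutants, against 235.7 and 465.3 in controls. Most of this sum was the single gene Cpr67Fb, with 33 and 29 in mutants, against 232 and 396 in controls. Ccp84Ad had 4 and 0 reads in mutants, against 0 and 44 in controls. The part of these tissues in the differences among the ribosomal protein genes was not tested. Germ cell markers summed to 8804 and 9596 in mutants, against 10650 and 9764 in controls, and somatic gonad markers to 24070 and 27130 in mutants, against 31900 and 25010 in controls. The largest part of the germ cell sum was vas, with 2420 and 3477 in mutants, against 4557 and 3941 in controls. Of the 8 germ cell log2 fold changes 4 were above 0 and 4 below. In the somatic gonad sum the largest part was fax, with 16715 and 16499 in mutants, against 15040 and 13567 in controls. Of the 6 somatic gonad log2 fold changes 2, fax included, were above 0 and 4 below.

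**Figure D5:**
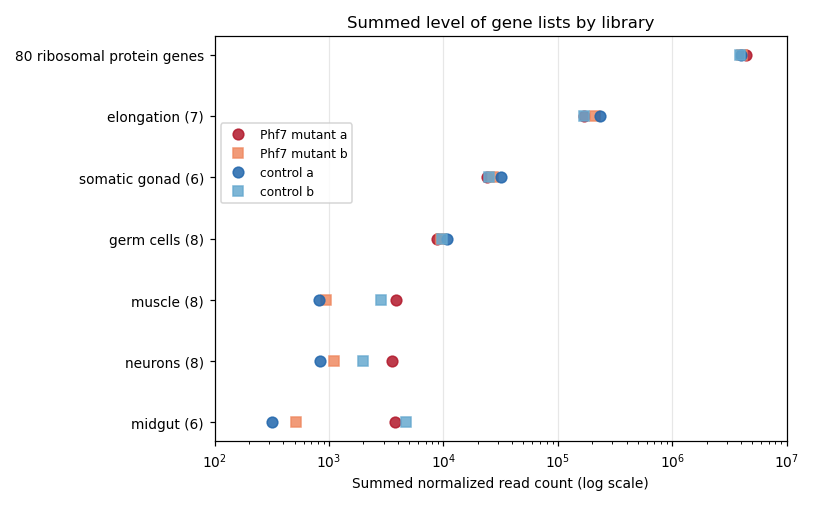
Summed normalized read count (horizontal axis, log scale) of the 80 ribosomal protein genes, the 7 elongation factor genes and 5 marker lists in each of the 4 libraries, with the number of genes in parentheses. The muscle, neuron and midgut sums are all higher in mutant a and control b than in the other libraries, whereas the ribosomal protein sums lie almost on top of each other.

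Genes that work with the ribosome were set beside its proteins. Of 7 elongation factor genes 0 passed limma's test and 0 had an unadjusted p under 0.05, 4 log2 fold changes were above 0 and 3 below, and the median was 0.04. Ef1alpha48D, which delivers aminoacyl-tRNA, had 73133 and 99214 normalized counts in mutants, against 121665 and 75139 in controls. EF2, which moves the ribosome along the mRNA, had 23318 and 34670 normalized counts in mutants, against 34685 and 26644 in controls. Both overlapped between genotypes, and in 6 of the 7 genes mutant b was above mutant a and control a above control b.

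Of 21 matched genes of ribosome assembly 0 passed and 1 had an unadjusted p under 0.05, 14 were above 0 and 7 below, with a median of 0.09, and in 16 of them mutant b and control a were the higher libraries. The most abundant were Non1, a GTPase of large-subunit assembly, with 24280 and 14868 normalized counts in mutants, against 12587 and 19754 in controls, and Nop60B, the pseudouridine synthase of the snoRNPs, with 9040 and 10667 normalized counts in mutants, against 11953 and 8967 in controls. Of 15 growth regulators and transcription regulators of ribosomal protein genes 0 passed and 1 had an unadjusted p under 0.05, 5 were above 0 and 10 below, with a median of -0.14. Trf2, a TBP-related factor that acts at ribosomal protein gene promoters, had 23217 and 13477 normalized counts in mutants, against 9969 and 15214 in controls. Thor, the fly 4E-BP, had 12208 and 6946 normalized counts in mutants, against 7623 and 18565 in controls. All 4 of these genes overlapped between genotypes. The genes with an unadjusted p under 0.05 did not, and they are named after their values were seen. Myc, a transcription factor that drives growth and ribosome production, had 2656 and 2501 normalized counts in mutants, against 3853 and 4556 in controls (log2 fold change -0.70 ± 0.17, adjusted p = 0.602 by limma). vito, a nucleolar protein of ribosome assembly, had 570 and 666 normalized counts in mutants, against 422 and 371 in controls (log2 fold change 0.64 ± 0.21, adjusted p = 0.802 by limma).

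The 72 tested genes of mitochondrial ribosomal proteins, which form the separate ribosome of that organelle, had a median mean count of 790.2, far below that of the cytoplasmic genes. Their median log2 fold change was 0.20, with 63 above 0 and 9 below and 0 called by limma, and 3 genes (mRpL45, mRpS31 and mRpL2) had an unadjusted p under 0.05. Both mutant libraries lay above both control libraries in 35 of the 72 (48.6%), beside 16.3% of all genes tested. They lay below in 1 (1.39%), beside 16.6% of all genes tested. Mitochondrial ribosomal protein genes took 0.58% and 0.66% of the reads in mutants, against 0.56% and 0.52% in controls. The difference between the 2 sets of genes was not tested.

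Among other genes with a mean of at least 1000, those whose log2 values over the 4 libraries were most like the mean of the members were stv, eIF3ga, CG31550, Arf102F and shot, with Pearson r between 0.979 and 0.996 over 4 libraries. These genes were picked for the highest r among many, each with 4 values, so their r is no test of shared regulation. The mean of the members on the log2 scale was 15.32 and 15.27 in mutants, against 15.24 and 15.18 in controls. stv, a co-chaperone of the BAG family, had 2909 and 2424 normalized counts in mutants, against 2337 and 1972 in controls. eIF3ga, a subunit of initiation factor eIF3, had 3422 and 3035 normalized counts in mutants, against 2947 and 2465 in controls.

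The members were spread over the genome, with 19 on 2L, 20 on 2R, 13 on 3L, 19 on 3R, 1 on chromosome 4 (RpS3A) and 11 on X. The median log2 fold change of the tested members was 0.08 on 2L, 0.05 on 2R, 0.09 on 3L, 0.13 on 3R and 0.14 on X. Over all genes tested the medians were 0.02 on 2L, 0.03 on 2R, 0.02 on 3L, 0.01 on 3R and 0.09 on X. RpS3A, alone on its chromosome, had 43050 and 46448 normalized counts in mutants, against 50667 and 43120 in controls, and these overlapped. Within their bounds 25 members held 52 snoRNA genes in all. In 8 members an exon overlapped that of a gene on the opposite strand by at least 100 nt, and RpL7-like overlapped CG34164 on the same strand over its whole length of 1771 nt. RpL12 and RpL39 converge at chr2R:24060378-24061860 and chr2R:24061853-24062431 and overlap by 8 nt at their ends. The strand setting of the counting is not given in the sources used here, so reads in such overlaps are uncertain.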

How the data were processed

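RNA of sorted gonads was measured in 4 libraries (2 Phf7 mutant, 2 control) with the QuantSeq 3′ mRNA kit. The authors used HISAT2 for alignment to dm6, HTSeq for counting and DESeq2 for the comparison, and the submitters' processing notes also list Cufflinks. Not given in the sources used here: program versions, the strand setting, and the handling of reads shared between copies. The deposited table of 17103 genes holds the mean normalized count of each gene over all libraries, a signal made by the authors with median-ratio size factors. Its other columns are the authors' own comparison, a shrunken log2 fold change (control over mutant), the standard error, the test score and p-values, of which no value is reported here. There were 0 columns of per-sample values.

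The reads of each library were worked out from the printed means, which are sums of whole reads times the value of 1 read in each library. For means up to 1000, all whole-number sets that give the printed 15 digits were searched, and 11208 of 11208 genes had exactly 1 solution (10 of 1500 decoys had any). Above 1000, the deposited log2 fold change and standard error served only as a key to choose among sets, and 1471 of 1471 genes had exactly 1 solution (0 of 150 decoys). On 4595 genes solved without it the key was checked, and it matched in 4595. Libraries were assigned to genotypes by the labelled direction of that fold change at genes where only 1 read was found. Size factors were 1.13 and 1.12 for mutants and 0.98 and 0.82 for controls, and recomputing them from all recovered reads gave the same values.

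Genotypes were compared with limma 3.58.1 in R 4.3.3 (lmFit, eBayes with trend) on log2(normalized count + 1), over the 9124 genes with a mean of at least 10, two-sided, with Benjamini-Hochberg adjustment over all of them and a threshold of 0.05. Fold changes are mutant over control on this scale. The design named a test for the calls only. The pseudocount, scaling, filter, voom, trend and each library were varied. Fits were tested on simulated data. All 83 members were placed on the Ensembl release 115 annotation (BDGP6.54), 2 of them through RefSeq synonyms, and positions are from that annotation. Summed list values are normalized counts. Values by library are given for the 3 most and 3 least abundant genes of each subunit, the 3 largest fold changes in each direction, copies and relatives, the stalk, sta, RpS3, RpS6, RpL3 and RpL11, and the 2 most abundant genes of each pathway list. RpL7A, RpS4, RpL17, RpL13A, RpL14, RpL29, RpS3A and both ubiquitin fusions were added after their values were seen. The members and lists were chosen with earlier results of these data known. Of the listed names, Mybbp1A, Sbds and Irbp18 were not matched to a symbol of the table. Some members are counted in every total but not reported by name here. Promoter motifs and protein sequences were not analysed here.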

Additional observations from a re-analysis of the deposited data

How the results depend on the processing

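Alternatives that kept all libraries were pseudocounts of 0.5 and 5, scaling by total reads and size factors from other genes. Further ones were no filter, a mean of at least 100, limma-voom and limma without trend. Each called 0 members and 0 of all genes tested, so not Phf7 either, and this count does not set the members apart. In each the median log2 fold change of the members stayed above 0, and with a library left out it lay at 0.05 to 0.13. The log2 ratio of the members' share, 0.06, was 0.031 without the 10 most abundant other genes and 0.094 in normalized counts, and 0.05 to 0.07 with a library left out. Scaling by total reads took the number of members above 0 from 67 to 55 of 80. Members added after their values were seen were not checked singly. Among the 27 genes named by rule, this scaling turned RpL11 to -0.024, RpL34b to -0.020 and RpS28b to -0.031, and no other setting that kept all libraries turned any of the 27. Leaving out a library turned 15 of them, whose fold changes then ranged from -0.174 to 0.195 for RpL11, -0.038 to 0.191 for RpL23, -0.030 to 0.433 for RpL24-like, -0.111 to 0.141 for RpL34b, -0.246 to 0.358 for RpL37A, -0.245 to 0.037 for RpL38, -0.222 to 0.020 for RpL39, -0.166 to 0.061 for RpL41, -0.255 to 0.122 for RpLP0-like, -0.005 to 0.150 for RpS15Aa, -0.459 to 0.040 for RpS15Ab, -0.121 to 0.310 for RpS16, -0.091 to 0.098 for RpS28b, -0.093 to 0.270 for RpS6 and -0.091 to 0.369 for RpS9.

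No paired analysis was possible because the recovered libraries carry no replicate number. With 2 libraries per genotype, a p that misses the threshold does not show that levels are equal. Sampling noise is small for genes of this abundance, so the spread between libraries, not depth, limits these comparisons, except for RpS28a and RpS28-like.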
